A study of Rattus norvegicus with 18 samples.

Results

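The comparison was between rat astrocytes kept for 12 hours on immobilised beta-amyloid 25-35, a fragment of the peptide that runs from residue 25 to residue 35, and astrocytes that had not met the peptide. It used 9 of the 18 arrays of the series, chosen by their titles: 3 arrays at 12 hours and 6 control arrays. The control cells grew on laminin and nitrocellulose, and how long they were in culture is not labelled. The source of controls 3 to 6 and of the 3 arrays at 12 hours is given as cortical type-I astrocytes. For controls 1 and 2 it is given as cerebral cortex, with astrocytes named in the title. The labels name no strain, age, batch or separate culture, so the p-values here rest on scatter among arrays, which could be technical. That scatter was estimated from all 18 arrays of the series, those of the later times included. Because the source labels of the controls differ, every fold was taken against all 6 controls, controls 1 and 2 alone, and controls 3 to 6 alone.

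Astrocytes take up glutamate released by neurons, convert it to glutamine, and respond to injury or inflammatory signals by changing their cytokines, filaments, matrix and growth factor signalling. The 25 to 35 fragment is a short stretch of the amyloid peptide of Alzheimer's disease that aggregates and is widely used to expose cultured cells to amyloid. The Jak-Stat and NF-kappa B pathways carry cytokine signals to the nucleus, and their targets in astrocytes include chemokines, adhesion molecules and the prostaglandin synthase Ptgs2.

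The array measured 1322 probe sets made for neurobiology genes, of which 59 were control probe sets. Of the other 1263, those bright enough on at least 3 arrays, 1027 in all, were tested. They held 926 probe sets with 1 gene symbol, which stood for 621 genes. The deposited intensity, called signal here, had a trimmed mean of 502.067 to 502.632 on each of the 9 arrays and a median of 101.1 to 130.95. Signals under 11.3 were raised to that floor before log2 was taken, which touched 6.33% to 12.5% of an array's values. Precision is limited by the number of arrays. The median half-width of the 95% interval of a log2 fold was 0.72 against all 6 controls, 0.85 against controls 1 and 2, and 0.71 against controls 3 to 6.

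The 3 arrays at 12 hours were close to control 1, less close to control 2 and far from controls 3 to 6. Their log2 signals correlated with each other at 0.975 to 0.979 over the 1027 tested probe sets, which share arrays and scaling, so these correlations are descriptions. With control 1 the correlation was 0.966 to 0.970, with control 2 0.916 to 0.922, and with controls 3 to 6 0.802 to 0.832. Of all 1263 probe sets, the mean of the 3 arrays at 12 hours lay 2-fold or more from control 1 in 92 (7.28%). From control 2 it lay that far in 239 (18.9%). From controls 3, 4, 5 and 6 it lay that far in 327 (25.9%), 369 (29.2%), 336 (26.6%) and 408 (32.3%). For scale, each array at 12 hours was 2-fold or more from the mean of the other 2 in 64 to 70 probe sets. By source label the exposed arrays match controls 3 to 6, and by signal they lay nearer to controls 1 and 2.

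**Figure D1:**
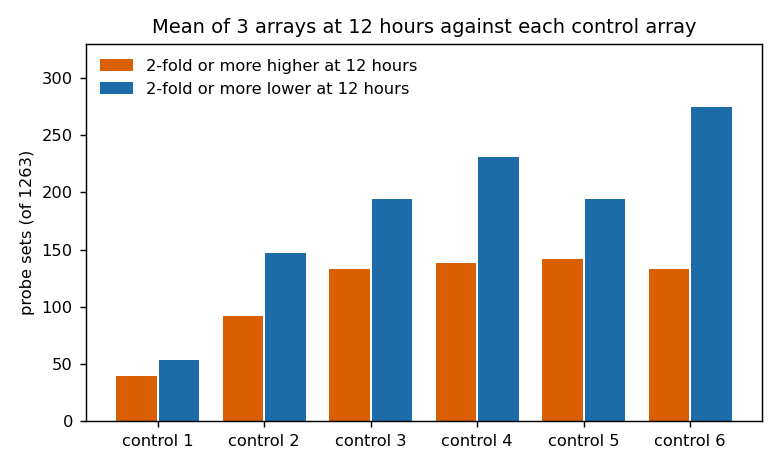
Number of probe sets, of 1263, whose mean log2 signal at 12 hours was 2-fold or more higher (orange) or lower (blue) than in each single control array. Control 1 has 39 higher and 53 lower, control 6 has 133 higher and 275 lower, and each of controls 3 to 6 has more than either of controls 1 and 2.

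Against all 6 controls, 17 of 1027 probe sets (1.66%) passed a limma adjusted p of 0.05, 8 higher (0.779%) and 9 lower (0.876%) at 12 hours. Against controls 3 to 6 alone 318 passed (31%), 132 higher (12.9%) and 186 lower (18.1%). Against controls 1 and 2 alone 0 passed in limma (0%), where 62 had an unadjusted p under 0.05 and the smallest adjusted p was 0.109. The corresponding counts of unadjusted p under 0.05 were 301 against all 6 controls and 451 against controls 3 to 6. A fold at 12 hours depends on the set of controls wherever the 2 sets differ, and that difference was itself tested: 126 probe sets (12.3%) passed in limma between controls 1 and 2 and controls 3 to 6, 60 higher (5.84%) and 66 lower (6.43%). The comparison with 2 control arrays is also the least precise of the 3, so the 0 does not show that the exposed cells and controls 1 and 2 were alike.

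Single arrays moved these counts. Without control 1, 211 probe sets passed against all 6 controls, and without control 2, 31. Without control 3, 4 or 5, or without any array at 12 hours, 1 passed, a probe set of the sodium leak channel gene Nalcn, and without control 6, 2 passed, Nalcn and Kcnma1. Against controls 3 to 6, leaving out array 1, 2 or 3 at 12 hours left 190, 208 and 198. Against controls 1 and 2, leaving out control 1 gave 3, in Ccl5, Nalcn and Glul, and leaving out control 6 gave 1, in Kcnma1. Between the 2 sets of controls, 9 passed without control 1 and 42 without control 2.

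The direction of the calls depended on how arrays were scaled. With the deposited scaling the 1027 probe sets had a median log2 fold of -0.18 against all 6 controls and -0.21 against controls 3 to 6. After median centring these medians were 0.02 and 0.02, and the calls against controls 3 to 6 split into 189 higher and 110 lower, against 153 and 117 after quantile normalisation and 139 and 126 after cyclic loess. Against all 6 controls the splits were 10 and 5, 7 and 1, and 3 and 1 in the same order. Of the 17, Ccl5, Kcnma1, Jak2 and Nalcn (AF078779_g_at) passed under all 3 other scalings, and Syn1, Chrnb4, Drd1 and Pkia under none of them. Counted by 1 probe set per gene, 70 of the 621 genes rose and 116 fell against controls 3 to 6 with the deposited scaling. The counts were 80 and 73 after quantile normalisation, 103 and 67 after median centring, and 75 and 82 after cyclic loess. Counts by list under another scaling are to be read beside these. Small falls are therefore to be read against the shift of all probe sets, which was -0.12 against controls 1 and 2.

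**Figure D2:**
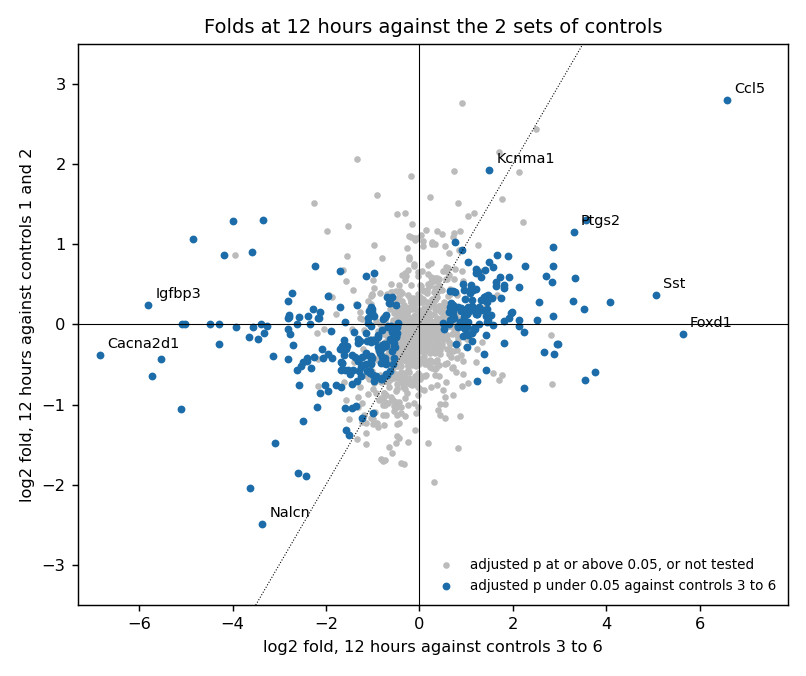
Log2 fold at 12 hours against controls 3 to 6 (horizontal axis) and against controls 1 and 2 (vertical axis, a different scale) for each of 1263 probe sets, with those past a limma adjusted p of 0.05 against controls 3 to 6 in blue. The dotted line marks equal folds, near which Nalcn and Kcnma1 lie, while the labelled probe sets of Cacna2d1 (M86621_at), Igfbp3 (M31837_at), Foxd1 (L13192_f_at) and Sst (M25890_at) have large folds against controls 3 to 6 and folds of -0.39 to 0.37 against controls 1 and 2. Both axes use the same arrays at 12 hours.

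Ptgs2, the inducible prostaglandin synthase, rose against all 6 controls. Cx3cl1, the membrane-bound chemokine fractalkine, and Sst, the precursor of the peptide somatostatin, rose against controls 3 to 6 but had similar signals in controls 1 and 2. Their promoters are shown because these genes stand for the 2 patterns that run through the results. They are the RefSeq sequences of build GRCr8 from 250 bases before to 50 bases after the annotated start, at chr13:64713813-64714112 (plus strand) for Ptgs2, chr19:10242771-10243070 (minus strand) for Cx3cl1 and chr11:90461296-90461595 (plus strand) for Sst. Capitals mark matches to a searched motif.
Ptgs2: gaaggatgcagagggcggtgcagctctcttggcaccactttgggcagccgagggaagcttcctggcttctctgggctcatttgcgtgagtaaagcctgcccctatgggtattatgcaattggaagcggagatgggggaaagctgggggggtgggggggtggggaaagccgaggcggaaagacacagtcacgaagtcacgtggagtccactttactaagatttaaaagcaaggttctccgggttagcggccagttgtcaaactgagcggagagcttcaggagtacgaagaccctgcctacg
Cx3cl1: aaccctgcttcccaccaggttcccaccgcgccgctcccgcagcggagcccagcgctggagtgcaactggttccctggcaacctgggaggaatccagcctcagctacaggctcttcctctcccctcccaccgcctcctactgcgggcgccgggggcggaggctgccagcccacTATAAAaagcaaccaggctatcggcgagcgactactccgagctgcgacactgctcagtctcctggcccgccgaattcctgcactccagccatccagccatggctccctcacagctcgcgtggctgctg
Sst: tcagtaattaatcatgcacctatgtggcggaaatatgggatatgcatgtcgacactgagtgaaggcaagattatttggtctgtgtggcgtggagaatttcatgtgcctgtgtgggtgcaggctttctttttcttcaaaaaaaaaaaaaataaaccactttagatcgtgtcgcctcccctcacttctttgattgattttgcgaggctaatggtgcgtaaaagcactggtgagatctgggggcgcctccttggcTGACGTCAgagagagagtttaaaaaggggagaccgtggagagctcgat
Both strands were searched for the TATA box TATAAA, the cAMP response element TGACGTCA, the AP-1 element TGANTCA and the NF-kappa B element. Cx3cl1 held the TATA box at bases 173 to 178 of the window, Sst the cAMP response element at bases 253 to 260, and the Ptgs2 window none of the 4 motifs in these letters. Of 33469 rat promoters of the same length, 14.2% held the TATA box, 1.83% the cAMP response element, 7.33% the AP-1 element and 7.51% the NF-kappa B element. A match is a description of the letters and not of a site in use.

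Among the inflammatory genes, Ptgs2 was higher at 12 hours than in every control. Its signal was 2486.7, 2250.6 and 2194.7 at 12 hours, 1407.4 and 762.1 in controls 1 and 2, and 398.1, 171.5, 173.2 and 250.2 in controls 3 to 6. The groups did not overlap, and control 1 came closest to the exposed arrays. The log2 fold was 2.59 ± 0.62 (SE) against all 6 controls (limma adjusted p = 0.0475) and 3.31 ± 0.47 against controls 3 to 6 (limma adjusted p = 0.000469). The fold over controls 1 and 2 was 1.16 on the log2 scale with a 95% interval of -0.05 to 2.36, and the 2 sets of controls differed by 2.15 in limma (adjusted p = 0.0203). Of the 5 genes tested in the list of inducible inflammatory enzymes, Ptgs2 rose against controls 3 to 6 and Pla2g6, a calcium-independent phospholipase, fell. Of all 621 genes 11.3% rose and 18.7% fell. Pla2g6 had 159.7 to 181.7 at 12 hours and 311.9 to 412.8 in controls 3 to 6, but 216.6 and 56.4 in controls 1 and 2, and its fall did not pass under any of the 3 other scalings. The inducible nitric oxide synthase Nos2 passed with none of its tested probe sets.

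Ccl5, a chemokine that draws T cells and monocytes, showed the largest rise of the comparison with all 6 controls, and its level in control 1 was that of the exposed cells. The signal was 1480.0, 1250.5 and 1252.7 at 12 hours and 1496.3 in control 1, against 24.2 in control 2 and 14.7, 12.4, 11.4 and 17.3 in controls 3 to 6. Control 1 lay above all 3 exposed arrays, and the other 5 controls lay near the floor. The log2 fold was 5.32 ± 1.10 (SE) against all 6 controls (limma adjusted p = 0.0382) and 6.59 ± 0.86 against controls 3 to 6 (limma adjusted p = 0.000273). Over controls 1 and 2 together it was 2.80 ± 1.03 (limma adjusted p = 0.767), a mean of 2 unlike arrays. With control 1 left out of that set it was 5.77 (limma adjusted p = 1.223e-08).

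Cx3cl1 was measured by 4 probe sets, and 3 of them rose against controls 3 to 6. For AF030358_g_at the signal was 778.9, 770.6 and 860.2 at 12 hours, 731.3 and 679.7 in controls 1 and 2, and 51.0, 139.0, 68.4 and 47.5 in controls 3 to 6. Controls 1 and 2 lay just under the exposed arrays and far above controls 3 to 6. The probe set rc_AA800602_s_at had a log2 fold of 2.24 ± 0.21 (SE) against controls 3 to 6, the smallest p of that comparison (limma adjusted p = 2.717e-05). Compared with controls 1 and 2, its log2 fold was -0.09, with a 95% interval of -0.62 to 0.44, and the 2 sets of controls differed by 2.33 (limma adjusted p = 6.763e-05).

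Cytokine genes moved in both directions against controls 3 to 6. Of 20 tested, Ccl5 included, 4 rose and 4 fell, beside 11.3% and 18.7% of the 621 genes. Il18, a cytokine of the interleukin-1 family, rose by 2.14 ± 0.37 (SE) on the log2 scale (limma adjusted p = 0.00137), with 729.0 to 873.8 at 12 hours, 764.3 and 743.2 in controls 1 and 2, and 153.7 to 239.0 in controls 3 to 6. The ciliary neurotrophic factor Cntf, a cytokine made by astrocytes, fell by 3.92 on the log2 scale (limma adjusted p = 0.00113). Its signal was 105.2 to 130.9 at 12 hours, 118.0 and 126.3 in controls 1 and 2, and 1623.9 to 1982.0 in controls 3 to 6, so the exposed arrays and controls 1 and 2 shared 1 range. Cd40lg, the ligand of the receptor CD40, was below every control, and its 2 sets of controls did not differ past the threshold (limma adjusted p = 0.923). It had 33.4, 25.2 and 22.6 at 12 hours against 43.6 and 82.9 in controls 1 and 2 and 50.9 to 78.4 in controls 3 to 6. The log2 fold was -1.21 ± 0.25 (SE) against all 6 controls (limma adjusted p = 0.0382), -1.17 against controls 1 and 2 (limma adjusted p = 0.645) and -1.23 against controls 3 to 6 (limma adjusted p = 0.00448). These signals are low on every array, where the probe set is near the level used for the filter, 44.9.

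Against controls 3 to 6, where 11.3% of the 621 genes rose and 18.7% fell, 3 of 15 cytokine and chemokine receptors rose and 1 fell. Il4r, the interleukin-4 receptor, Tnfrsf1a, the first receptor of tumour necrosis factor, and Tgfbr3 rose, and the chemokine receptor Cxcr4 fell. The rise of Tnfrsf1a did not pass after quantile normalisation or cyclic loess. Il4r had 635.6, 757.2 and 725.7 at 12 hours, 601.7 in control 1 and 398.7 to 460.5 in the other 5 controls. Of 6 genes of Jak-Stat and NF-kappa B signalling, 4 rose and 0 fell, and their median log2 fold was 0.80 against controls 3 to 6 and 0.15 against controls 1 and 2, beside -0.25 and -0.16 for all 621 genes. The count of 4 and 0 was the same under the 3 other scalings. The 4 were the kinases Jak1 and Jak2, the transcription factor Stat3 and the NF-kappa B subunit Nfkb1.

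Within this pathway Jak1 and 2 of the 3 tested Jak2 probe sets were above every control. For the Jak2 probe set AJ000557cds_s_at the signal was 253.0, 232.4 and 211.2 at 12 hours, 145.8 and 136.1 in controls 1 and 2, and 66.0, 71.2, 69.8 and 113.2 in controls 3 to 6. The log2 fold was 1.28 ± 0.29 (SE) against all 6 controls (limma adjusted p = 0.044) and 0.72 against controls 1 and 2, with a 95% interval of 0.09 to 1.35 (limma adjusted p = 0.767). The other 2 tested Jak2 probe sets did not pass against all 6 controls, with log2 folds of 0.53 (U13396_g_at) and 0.01 (U13396_at). In U13396_at the exposed arrays, with 208.5 to 253.2, lay below controls 1 and 2, with 301.5 and 314.7. Jak1 had 940.6 to 1011.4 at 12 hours, 801.7 and 830.6 in controls 1 and 2, and 301.0 to 428.4 in controls 3 to 6. Nfkb1 had 2536.4 to 2771.0 at 12 hours and 1086.2 to 1161.7 in controls 3 to 6, while controls 1 and 2, with 2594.5 and 2262.8, lay with the exposed arrays. Cebpb, a transcription factor of the acute-phase response, was above every control with both named probe sets, and for X60769mRNA_at had 3620.0 to 3985.0 at 12 hours, 3583.9 and 2078.9 in controls 1 and 2, and 488.6 to 1193.4 in controls 3 to 6.

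**Figure D3:**
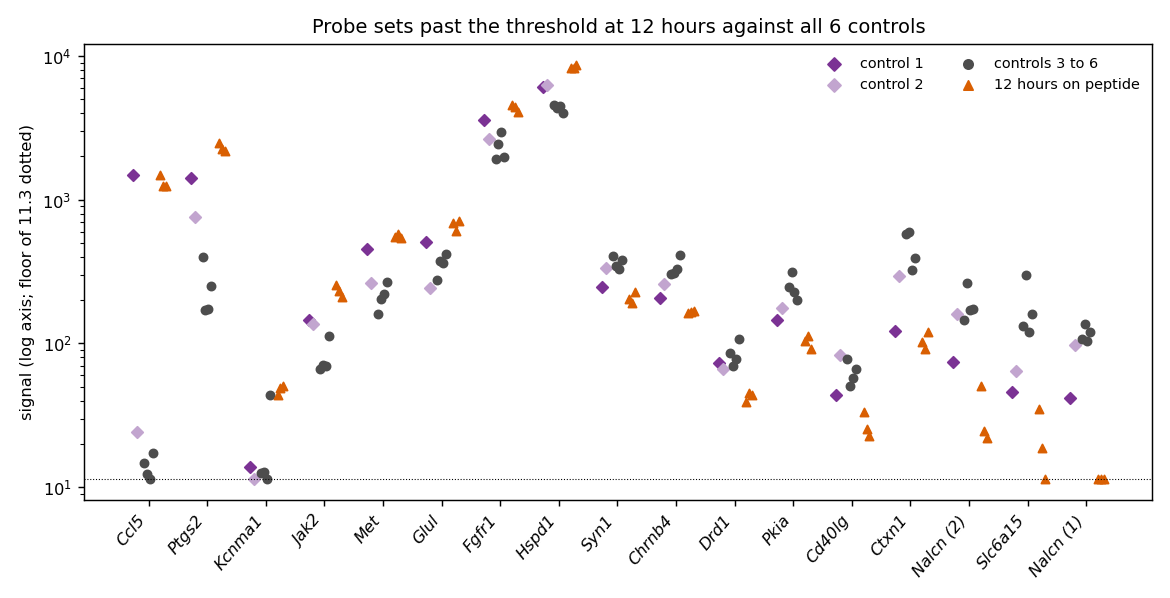
Signal on each array (log axis, floor of 11.3 dotted) of the 17 probe sets past a limma adjusted p of 0.05 at 12 hours against all 6 controls, ordered by fold from highest to lowest; Nalcn (1) is AF078779_g_at and Nalcn (2) is AF078779_at. Triangles are the exposed arrays, which lie outside the range of the 6 controls except for Ccl5, where control 1 has 1496.3, and Kcnma1, where control 6 has 43.9.

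Growth factor receptors and the kinases that follow them held several of the rises. Met, the receptor of hepatocyte growth factor, had 548.4, 575.3 and 542.3 at 12 hours, 454.3 and 264.4 in controls 1 and 2, and 159.0 to 267.5 in controls 3 to 6. All 6 controls lay below the exposed arrays, and the log2 fold was 1.17 ± 0.27 (SE) against all 6 (limma adjusted p = 0.0467). Fgfr1, a receptor of fibroblast growth factors, had 4102.8 to 4595.8 at 12 hours in the probe set S54008_i_at against 1930.5 to 3570.9 in the 6 controls, a log2 fold of 0.79 ± 0.19 (SE) (limma adjusted p = 0.0477). Its other tested probe set D12498_s_at had 3916.7 to 4071.3 at 12 hours, below the 4275.6 of control 1, and did not pass against all 6 controls. The ligand Fgf2 had 430.0, 448.4 and 392.2 at 12 hours in X07285cds_s_at and 156.1 to 305.1 in the controls, above every control but with a limma adjusted p of 0.12. Fgf2 was named after its values were seen.

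Of 27 MAP, calmodulin and Src-family kinases and phosphatases, 5 rose and 3 fell against controls 3 to 6, beside 11.3% and 18.7% of the 621 genes. The counts were 6 and 3 after quantile normalisation and cyclic loess, and 8 and 1 after median centring. Among all 621 genes they were 80 and 73 after quantile normalisation, 75 and 82 after cyclic loess, and 103 and 67 after median centring. Mapk6, an atypical MAP kinase, rose in both of its tested probe sets, and in M64301_at had 1877.1 to 2087.9 at 12 hours, 1691.1 and 1429.6 in controls 1 and 2, and 544.9 to 1000.9 in controls 3 to 6. Map2k1, the kinase that activates ERK, rose by 0.89 ± 0.16 (SE) on the log2 scale (limma adjusted p = 0.00143). Dusp5, a phosphatase that inactivates ERK in the nucleus, rose by 2.87 ± 0.54 (SE) (limma adjusted p = 0.00191), with 3131.4, 1703.1 and 2728.9 at 12 hours, 2637.4 in control 1, 593.4 in control 2 and 224.4 to 424.4 in controls 3 to 6. For Dusp5 control 1 lay among the exposed arrays, and for Ccl5 just above them. Control 2 lay far below them for both genes. Fyn, a Src-family kinase, fell by 1.61 on the log2 scale (limma adjusted p = 0.000273), with 324.1 to 424.5 at 12 hours against 904.0 to 1414.6 in controls 3 to 6.

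Some probe sets of the insulin-like growth factor genes differed between the sets of controls. Igf2, a growth factor of fetal tissue and meninges, had 3282.5, 3430.2 and 3487.6 at 12 hours in X17012mRNA_s_at, 3729.6 and 8043.0 in controls 1 and 2, and 532.5, 284.5, 220.2 and 211.2 in controls 3 to 6. Igfbp3, a binding protein of insulin-like growth factors, had 59.1, 39.9 and 55.7 at 12 hours in M31837_at, 16.3 and 112.9 in controls 1 and 2, and 2302.4 to 3529.2 in controls 3 to 6. The tested Igf2 probe sets M17960_at and M17960_g_at showed no such gap, with differences of -0.21 and 0.24 between the sets of controls (limma adjusted p = 0.571 and 0.484). In X17012mRNA_s_at and M31837_at the exposed arrays lay with or between controls 1 and 2 and apart from controls 3 to 6. In rc_AI009405_s_at Igfbp3 had 39.9 to 53.2 at 12 hours, below every control, with 63.0 and 79.2 in controls 1 and 2. The log2 fold of Igfbp3 in M31837_at was -5.80 ± 1.23 (SE) against controls 3 to 6 (limma adjusted p = 0.00344). Against controls 1 and 2 it was 0.24, with a 95% interval of -2.89 to 3.38. Its difference between the sets of controls was -6.04 (limma adjusted p = 0.0162), and that of Igf2 in X17012mRNA_s_at was 4.24 (limma adjusted p = 0.0204). Igfbp5 fell likewise against controls 3 to 6, while Igfbp6 rose, with 2877.0 to 3308.4 at 12 hours, 3439.9 in control 1, 1019.4 in control 2 and 371.0 to 490.3 in controls 3 to 6. In all, 4 of 15 growth factor receptors and binding proteins rose and 4 fell, beside 11.3% and 18.7% of the 621 genes.

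Among glutamate-handling genes, Glul, the glutamine synthetase that astrocytes use to clear glutamate, was above every control in all 4 of its tested probe sets. In rc_AI012265_i_at it had 687.8, 608.5 and 709.8 at 12 hours, 504.6 and 242.2 in controls 1 and 2, and 276.1 to 421.9 in controls 3 to 6. Its log2 fold was 0.92 ± 0.21 (SE) against all 6 controls (limma adjusted p = 0.044), 0.93 against controls 1 and 2 (limma adjusted p = 0.645) and 0.91 against controls 3 to 6 (limma adjusted p = 0.0092). The other 3 probe sets did not pass against all 6 controls, with log2 folds of 0.63 to 0.95, and control 1 lay close below the exposed arrays in each. In rc_AI232783_s_at, the brightest, control 1 had 11456.1 and the exposed arrays 12006.4 to 12630.1. Glud1, glutamate dehydrogenase, rose against controls 3 to 6, with 4600.7 to 4663.4 at 12 hours, 4831.9 and 4150.6 in controls 1 and 2, and 2068.3 to 2615.3 in controls 3 to 6. Slc1a3, the glial glutamate transporter GLAST, fell by 2.23 ± 0.81 on the log2 scale (SE, limma adjusted p = 0.0479), and did not pass under any of the 3 other scalings. It had 565.4 to 654.8 at 12 hours, 533.3 and 259.8 in controls 1 and 2, and 1556.2 to 3927.7 in controls 3 to 6, and its 2 sets of controls differed by -2.96 (limma adjusted p = 0.0479).

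All 8 astrocyte identity genes tested were above the floor on each of the 9 arrays. Vim, the intermediate filament vimentin, had 16029.5 to 17463.4 at 12 hours and 8770.4 to 18647.7 in the controls, and it passed in no comparison. Gja1, the gap junction protein connexin 43, rose by 2.13 ± 0.66 (SE) on the log2 scale against controls 3 to 6 (limma adjusted p = 0.025), with 5812.0 to 6132.7 at 12 hours, 4269.5 and 8604.3 in controls 1 and 2, and 810.6 to 1893.3 in controls 3 to 6. Of the 8 astrocyte identity genes tested, Gja1 rose and Slc1a3 fell against controls 3 to 6, beside 11.3% and 18.7% of the 621 genes. The glial calcium-binding protein S100b had 344.4 to 393.7 at 12 hours, 401.2 in control 1, 19.7 in control 2 and 661.8 to 1209.0 in controls 3 to 6. Apoe, the lipid carrier, had 2594.8 to 2873.5 at 12 hours within a control range of 956.1 to 5594.4 (X04979_at). Its log2 fold against all 6 controls was 0.01 as deposited, -0.13 after quantile normalisation and -0.09 after cyclic loess. Gfap, Aqp4, Fn1 and App were not analysed here.

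The summed signal of the 8 astrocyte markers was 38558.2 to 39896.6 at 12 hours. It was 34237.8 to 35080.3 in controls 1 and 2, and 24072.3 to 38020.9 in controls 3 to 6. Vim and Glul made up most of this sum at 12 hours, and Slc1a3 and S100b were lower than in controls 3 to 6. The median log2 fold of the 8 genes was -0.35 against controls 3 to 6 and 0.63 against controls 1 and 2. Controls 1 and 2 were unlike in several of these genes. Control 2 was lower than control 1 for S100b, Slc1a3, Apoe (956.1 against 3291.1) and Glul (5504.1 against 11456.1), and higher for Gja1. For the 10 neuron markers the sum was 3383.5 to 3630.4 at 12 hours, 3709.2 to 3827.5 in controls 1 and 2, and 4786.0 to 6351.7 in controls 3 to 6. Eno2, a neuronal enolase, made up most of this sum at 12 hours, with 2283.3 to 2487.6, and had 2612.3 and 2122.9 in controls 1 and 2 and 3120.3 to 3538.9 in controls 3 to 6, so it overlapped controls 1 and 2. Counted by 1 probe set per gene, 4 of the 10 fell against controls 3 to 6 (Map2, Syn1, Nefl and Eno2) and 0 rose. Of all 621 genes 18.7% fell and 11.3% rose. None of the probe sets counted was at the floor on any of the 9 arrays. Another Nefh probe set, rc_AA818677_at, rose by 3.57 on the log2 scale against controls 3 to 6 (limma adjusted p = 0.00131). For Nefl, M25638_s_at had a log2 fold of 1.03 against them (limma adjusted p = 0.234). For 4 fibroblast, meningeal and vascular genes, Igf2, Pdgfrb, Slc2a1 and Igfbp2, the sum was 11408.7 to 12613.9 at 12 hours and 12026.2 in control 1, against 27218.5 in control 2 and 21272.6 to 23651.9 in controls 3 to 6. Igfbp2 was the largest part of that sum, with 5678.6 to 6891.7 at 12 hours and 16390 to 19649.1 in controls 3 to 6. Igf2 went the other way, with 3282.5 to 3487.6 at 12 hours and 211.2 to 532.5 in controls 3 to 6. The 5 oligodendrocyte and precursor markers overlapped, with 1624.9 to 1818.5 at 12 hours and 1095.0 to 1917.9 in the controls. The microglial marker Itgam, the 1 of its list that was tested, had 32.1 to 40.1 at 12 hours and 37.3 to 65.8 in the controls. The part of these cell types in the results was not tested, and in such bulk samples fewer cells of a type and less RNA per cell cannot be told apart.

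Of 8 reactive astrocyte genes, 3 rose and 1 fell against controls 3 to 6, beside 11.3% and 18.7% of the 621 genes, and 2 rose after cyclic loess. Cd44, a hyaluronan receptor, had 50.3, 75.5 and 40.3 at 12 hours, 25.2 and 38.8 in controls 1 and 2, and 5.7 to 35.5 in controls 3 to 6, above every control but near the filter level. Icam1, an adhesion molecule for leukocytes, had 4779.1 to 5114.0 at 12 hours in D00913_g_at, 4668.8 and 4337.1 in controls 1 and 2, and 2494.8 to 2638.1 in controls 3 to 6. Stat3 was the third. The small heat shock protein Hspb1 fell by 2.76 on the log2 scale in rc_AI176658_s_at (limma adjusted p = 0.00182). It had 2673.3 to 2937.6 at 12 hours, 2443.5 and 3678.3 in controls 1 and 2, and 16695.2 to 20585.9 in controls 3 to 6. Control 1 lay below the exposed arrays and control 2 above them, as also in M86389cds_s_at. In rc_AA998683_g_at the exposed arrays, with 2151.0 to 2443.2, lay below every control, with 2867.2 in control 1 and 3741.9 in control 2.

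The mitochondrial chaperonin pair moved the other way from Hspb1. Hspd1, the larger subunit, had 8239.6, 8225.9 and 8704.4 at 12 hours, 6122.9 and 6338.6 in controls 1 and 2, and 3996.3 to 4579.4 in controls 3 to 6. It was above every control, with a log2 fold of 0.77 ± 0.18 (SE) against all 6 (limma adjusted p = 0.0475) and 0.43 against controls 1 and 2 with a 95% interval of 0.03 to 0.83 (limma adjusted p = 0.767). Hspe1, its partner, rose against controls 3 to 6, with 5906.4 to 6591.3 at 12 hours, 6783.6 in control 1 and 3491.3 to 4183.9 in the other 5 controls. In all, 3 of 7 heat shock and chaperonin genes rose and 1 fell, with 1 and 1 after cyclic loess. Among 11 metallothioneins and antioxidant enzymes, 2 rose and 3 fell, with 2 and 2 after quantile normalisation and 2 and 1 after median centring. Of all 621 genes 11.3% rose and 18.7% fell. Sod2, the mitochondrial superoxide dismutase, which is induced by NF-kappa B, rose by 1.81 ± 0.32 (SE) on the log2 scale against controls 3 to 6 (limma adjusted p = 0.00143). Its signal was 1583.1 to 1711.1 at 12 hours, 2648.0 and 1388.0 in controls 1 and 2, and 304.1 to 823.0 in controls 3 to 6.

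Of all 621 genes, 70 rose (11.3%) and 116 fell (18.7%) against controls 3 to 6, and the falls among channel and transmitter receptor genes were near that share or above it by a few genes. Nalcn, a sodium leak channel that sets the resting potential of neurons, had the smallest p of the comparison with all 6 controls. In AF078779_g_at it had 7.6, 10.1 and 6.8 at 12 hours, all under the floor, 41.8 and 96.8 in controls 1 and 2, and 106.9, 135.9, 104.2 and 120.6 in controls 3 to 6. The 6 controls all lay above the floor, so the folds are bounds: at least 8.41-fold lower than in all 6 controls (limma adjusted p = 0.00127), at least 5.63-fold lower than in controls 1 and 2 (limma adjusted p = 0.109), and at least 10.3-fold lower than in controls 3 to 6 (limma adjusted p = 0.000178). A second probe set, AF078779_at, had 50.6, 24.5 and 22.0 at 12 hours, 73.8 and 160.8 in controls 1 and 2, and 145.6 to 263.5 in controls 3 to 6, a log2 fold of -2.36 ± 0.50 (SE) against all 6 controls (limma adjusted p = 0.0406). The 2 sets of controls did not differ past the threshold in either probe set, by -0.87 and -0.75 on the log2 scale (limma adjusted p = 0.203 and 0.423). Nalcn had the smallest p against controls 1 and 2, and with only the 9 arrays in the fit its limma adjusted p there was 0.0446.

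Of 35 sodium, calcium and other cation channel genes, 8 fell and 1 rose against controls 3 to 6, and of 36 potassium channel genes, 8 fell and 1 rose. With the deposited scaling both shares of falls were near the 18.7% of all 621 genes. The falls numbered 6, 7 and 6 among the first and 4, 3 and 4 among the second after quantile normalisation, median centring and cyclic loess. Of all 621 genes 73, 67 and 82 fell in the same order. Among the first, Cacna2d1, an auxiliary subunit of voltage-gated calcium channels, was under the floor at 12 hours and had 19.3 and 6.0 in controls 1 and 2, against 956.6, 1426.5, 1475.8 and 1374.9 in controls 3 to 6. That is at least 114-fold lower than in controls 3 to 6 (limma adjusted p = 0.00143), while controls 1 and 2 were near the floor too. Scn7a, a sodium channel of glia, had 183.3 to 187.4 at 12 hours, 186.8 and 262.4 in controls 1 and 2, 343.1 in control 3 and 1737.7 to 2039.3 in controls 4 to 6 (S75991_at). Kcns1, a silent potassium channel subunit, had 10.5 to 13.2 at 12 hours, 13.8 to 17.4 in controls 1 to 3 and 104.7 to 134.9 in controls 4 to 6. For Scn7a and Kcns1 control 3 lay nearer to controls 1 and 2 than to controls 4 to 6.

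Kcnma1, the pore subunit of the large-conductance calcium-activated potassium channel, gave opposite signs in its 2 tested probe sets. In U55995_at it had 43.4, 48.8 and 50.2 at 12 hours, 4.8 to 13.8 in controls 1 to 5 and 43.9 in control 6, a log2 fold of 1.64 ± 0.34 (SE) against all 6 controls (limma adjusted p = 0.0382). In AF083341_s_at it had 19.0, 55.3 and 37.4 at 12 hours, 54.8 and 90.2 in controls 1 and 2, and 76.1 to 125.3 in controls 3 to 6, a log2 fold of -1.60 against controls 3 to 6 (limma adjusted p = 0.0159). The gene as a whole therefore has no single direction in these data.

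Of 20 glutamate receptor genes, 5 fell and 0 rose against controls 3 to 6, and of 32 GABA, glycine and acetylcholine receptor genes, 6 fell and 0 rose, beside 18.7% and 11.3% of the 621 genes. With quantile normalisation the falls were 3 and 3, with median centring 3 and 3, and with cyclic loess 3 and 4. Of all 621 genes 73, 67 and 82 fell in the same order. Gria3, an AMPA receptor subunit, was under the floor at 12 hours and in controls 1 and 2, and had 214.7 to 298.4 in controls 3 to 6 (X54656_at). Grik5, a kainate receptor subunit, had 181.9, 230.7 and 227.4 at 12 hours, 235.6 and 318.6 in controls 1 and 2, and 648.9 to 999.3 in controls 3 to 6. Chrnb4, a nicotinic acetylcholine receptor subunit, had 162.2, 164.1 and 167.8 at 12 hours in U42976_at, 205.4 and 260.2 in controls 1 and 2, and 304.8 to 415.5 in controls 3 to 6. It was below every control, with a log2 fold of -0.85 ± 0.20 (SE) against all 6 (limma adjusted p = 0.0475), but in its other tested probe set, J05232cds_s_at, the exposed arrays lay within the control range. Chrna7, another nicotinic subunit, had 24.2, 63.1 and 12.7 at 12 hours in L31619_at against 70.6 to 212.1 in the controls (limma adjusted p = 0.0596 against all 6), while S53987_at overlapped.

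Of 42 monoamine and peptide receptor genes, 8 fell and 1 rose against controls 3 to 6, about the share of all 621 genes that fell (18.7%). Under the other scalings, in the order given, 3, 4 and 3 fell, beside 73, 67 and 82 of the 621 genes. Drd1, the dopamine D1 receptor, had 39.4, 45.0 and 44.0 at 12 hours, 73.5 and 66.2 in controls 1 and 2, and 69.1 to 107.8 in controls 3 to 6. The 2 sets of controls overlapped, and the log2 fold was -0.88 ± 0.18 (SE) against all 6 (limma adjusted p = 0.0382), -0.71 against controls 1 and 2 (limma adjusted p = 0.645) and -0.97 against controls 3 to 6 (limma adjusted p = 0.00209). Adrb1, the beta-1 adrenergic receptor, was by contrast low in the exposed arrays and in controls 1 and 2, with 14.1 to 32.1 and 16.4 to 29.4, and had 60.0 to 281.9 in controls 3 to 6. Galr2, a galanin receptor, was above every control, with 110.0, 202.9 and 112.7 at 12 hours and 105.6 in control 5 as the highest control, and it did not pass in any of the 3 comparisons.

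Among transporters and signalling genes, Slc6a15, a transporter of neutral amino acids in neurons, had 34.9, 18.7 and 9.2 at 12 hours, 45.6 and 64.4 in controls 1 and 2, and 119.4 to 301.2 in controls 3 to 6. Its log2 fold was -2.56 ± 0.53 (SE) against all 6 controls (limma adjusted p = 0.0382) and -1.48 against controls 1 and 2 with a 95% interval of -2.65 to -0.30 (limma adjusted p = 0.767). Of 19 G protein, cAMP and protein kinase C genes, 7 fell and 2 rose against controls 3 to 6, beside 18.7% and 11.3% of the 621 genes. Under each other scaling 3 fell, beside 73, 67 and 82 of the 621 genes in the order given. Pkia, an inhibitor of cAMP-dependent protein kinase, had 103.6, 112.9 and 91.4 at 12 hours, 144.6 and 176.5 in controls 1 and 2, and 200.2 to 312.8 in controls 3 to 6, a log2 fold of -1.05 ± 0.24 (SE) against all 6 (limma adjusted p = 0.044). Prkcb, a protein kinase C, differed between the sets of controls: in E01789cds_s_at it had 31.3 to 64.1 at 12 hours, 61.3 and 65.7 in controls 1 and 2, and 296.7 to 350.3 in controls 3 to 6.

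Of 31 vesicle and SNARE genes, 6 fell and 1 rose against controls 3 to 6, and of 12 cytoskeleton genes 3 fell and 0 rose, shares near those of all 621 genes (18.7% fell and 11.3% rose). The sum of neuron markers was also lower than in controls 3 to 6, and its part in these falls was not tested. With the other scalings 4, 4 and 5 vesicle genes and 2, 2 and 2 cytoskeleton genes fell, beside 73, 67 and 82 of the 621 genes. Syn1, a synaptic vesicle protein of neurons, had 202.4, 189.7 and 226.8 at 12 hours, 245.8 and 337.5 in controls 1 and 2, and 327.0 to 406.3 in controls 3 to 6, a log2 fold of -0.71 ± 0.17 (SE) against all 6 (limma adjusted p = 0.0475). Ctxn1, cortexin, a neuronal membrane protein, had 102.1, 91.4 and 120.9 at 12 hours and 121.1 in control 1, just above them, against 294.0 in control 2 and 322.7 to 593.5 in controls 3 to 6. Its log2 fold was -1.71 ± 0.38 (SE) against all 6 (limma adjusted p = 0.044). Map2, a neuronal microtubule protein, had 42.6 to 57.2 at 12 hours in U30938_at, 74.0 and 31.1 in controls 1 and 2, and 257.6 to 631.9 in controls 3 to 6. Nefh, the heavy neurofilament subunit, went the other way in rc_AA818677_at, with 134.3, 138.5 and 134.0 at 12 hours, 166.5 in control 1 and 6.2 to 18.1 in the other 5 controls, while its second tested probe set X13804cds_at overlapped.

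**Figure D4:**
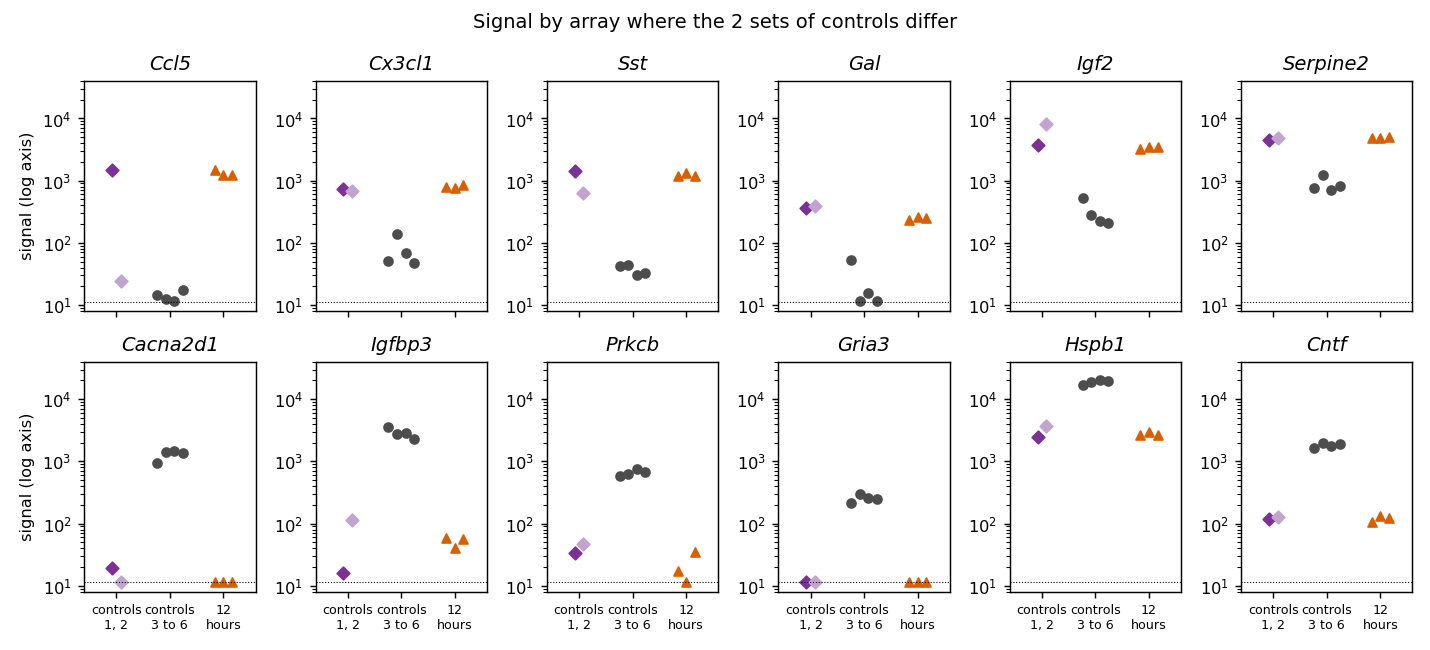
Signal on each array (log axis, floor of 11.3 dotted, values under it drawn at it) of 12 genes that passed a limma adjusted p of 0.05 at 12 hours against controls 3 to 6. Controls 1 (dark diamond) and 2 (light diamond) lie nearer to the exposed arrays (triangles) than controls 3 to 6 (circles) do in these panels, except that control 2 lies with controls 3 to 6 for Ccl5.

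Neuropeptide precursors showed the same dependence on the controls in 2 genes that rose. Sst had 1189.7, 1331.5 and 1194.2 at 12 hours in M25890_at, 1424.9 and 643.5 in controls 1 and 2, and 42.7, 43.9, 30.1 and 32.6 in controls 3 to 6. Its log2 fold was 5.07 ± 1.32 (SE) against controls 3 to 6 (limma adjusted p = 0.0115) and 0.37 against controls 1 and 2 with a 95% interval of -2.99 to 3.73. Gal, the galanin precursor, had 234.0, 261.8 and 250 at 12 hours, 359.0 and 393.0 in controls 1 and 2, and 53.5, 11.8, 15.6 and 11.6 in controls 3 to 6. Both controls 1 and 2 lay above the exposed arrays for Gal, and the 2 sets of controls differed by 4.35 on the log2 scale (limma adjusted p = 0.000636). Penk, the enkephalin precursor, fell by 2.57 on the log2 scale (limma adjusted p = 0.00815), with 206.2 to 237.4 at 12 hours, 232.1 and 578.1 in controls 1 and 2, and 1053.6 to 1594.6 in controls 3 to 6. Foxd1, a forkhead transcription factor, had 1620.3 to 1772.5 at 12 hours, 1807.5 and 1942.8 in controls 1 and 2, and 27.8 to 38.2 in controls 3 to 6 in L13192_f_at, whose name marks a probe set that can read related genes, so it is uncertain which gene it measures.

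Of 15 matrix and adhesion genes tested, 3 rose and 4 fell against controls 3 to 6, beside 11.3% and 18.7% of the 621 genes. Serpine2, a protease inhibitor secreted by glia, rose by 2.51 ± 0.37 (SE) on the log2 scale (limma adjusted p = 0.000526), with 4857.6 to 5122.8 at 12 hours, 4585.9 and 4906.0 in controls 1 and 2, and 719.1 to 1241.6 in controls 3 to 6. Bcan, the brain proteoglycan brevican, fell by 3.14 (limma adjusted p = 0.00221), with 157.5, 156.6 and 100.4 at 12 hours, 182.0 and 172.8 in controls 1 and 2, and 542.5 to 2235.0 in controls 3 to 6. Lsamp, an adhesion protein of the limbic system, had 10.7 to 11.4 at 12 hours, 12.1 and 19.2 in controls 1 and 2, and 221.1 to 816.2 in controls 3 to 6. Agrn, the matrix protein agrin, had 660.1 to 785.0 at 12 hours in M64780_at, 791.7 in control 1 and 1521.3 to 2496.2 in the other 5 controls. Bcan, Lsamp and this Agrn probe set lay below every control, with controls 1 and 2 close for Bcan and Lsamp and control 1 close for Agrn.

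The share of probe sets that lay outside the range of all 6 controls does not depend on the mean of unlike controls. On all 3 arrays at 12 hours, 55 of 1027 probe sets (5.36%) were above the highest control and 99 (9.64%) below the lowest, 154 in all (15%). After quantile normalisation the counts were 65 above and 52 below, after median centring 98 and 45, and after cyclic loess 79 and 62, so of these 4 scalings the deposited one alone put more probe sets below than above. Without control 1 the count was 317, though leaving out an array can only keep or raise it. Of the 621 genes, by 1 probe set each, 29 (4.67%) were above and 71 (11.4%) below. Of 36 potassium channel genes 8 were below, of 35 other cation channel genes 7, and of 32 GABA, glycine and acetylcholine receptor genes 5. Of 42 monoamine and peptide receptor genes 2 were below, of 31 vesicle genes 2 and of 20 glutamate receptor genes 2. These last shares were under the 11.4% of all 621 genes. Above every control were 3 of 8 reactive astrocyte genes. The counts by list were taken with the deposited scaling only.

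**Figure D5:**
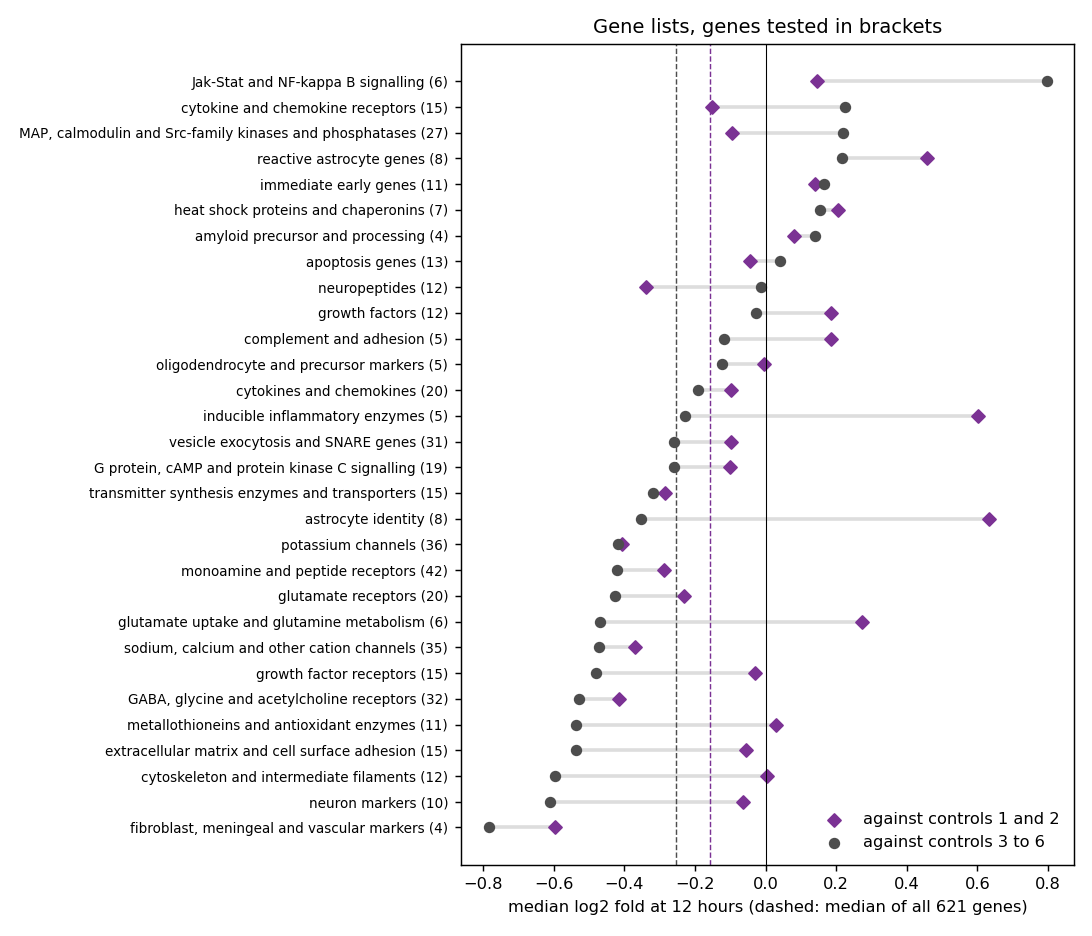
Median log2 fold at 12 hours of the genes of each of 30 lists, 1 probe set per gene, against controls 1 and 2 (diamonds) and controls 3 to 6 (circles), with the medians of all 621 genes dashed. Both medians use the same arrays at 12 hours. Jak-Stat and NF-kappa B signalling has 0.80 against controls 3 to 6 and 0.15 against controls 1 and 2, astrocyte identity -0.35 and 0.63, and potassium channels -0.42 and -0.41.

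With controls 1 and 2 as reference no gene of any list passed in limma (0% of the 621 genes). The list medians kept closer to that of all genes than against controls 3 to 6 for neuron markers, with -0.06 against -0.61, and for matrix and adhesion genes, with -0.06 against -0.54. They lay further from it for astrocyte identity (0.63 against -0.35) and inducible inflammatory enzymes (0.60 against -0.23). The same held for reactive astrocyte genes (0.46 against 0.22) and glutamate uptake and glutamine metabolism (0.27 against -0.47). For potassium channels the medians were -0.41 and -0.42, and for GABA, glycine and acetylcholine receptors -0.41 and -0.53, beside -0.16 and -0.25 for all 621 genes. No amyloid precursor or processing gene of the 4 tested passed, though 2 rose against controls 3 to 6 after median centring, nor did any of the 11 immediate early genes but Junb, which rose, and Fos, which fell, both against controls 3 to 6 (Fos had a limma adjusted p of 0.0303, and did not pass after median centring). Fos had 1903.2 to 2067.5 at 12 hours in X06769cds_g_at, 1716.2 and 4165.0 in controls 1 and 2, and 4038.6 to 7713.2 in controls 3 to 6. Of 13 apoptosis genes 1 fell, the death receptor Fas, with 66.6 to 69.3 at 12 hours, 67.7 and 92.5 in controls 1 and 2, and 118.8 to 190.0 in controls 3 to 6. Of all 621 genes 11.3% rose and 18.7% fell against controls 3 to 6.

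The probe sets with 1 symbol and the smallest p against controls 1 and 2, 4 in each direction, had sets of controls that did not differ past the threshold. They were those of Nalcn, Kcnma1, Cd40lg and Glul, described with their groups, and Camk2d, Syt6, Tf and the chloride transporter gene Clcn5. Camk2d, a calmodulin-dependent kinase, had 322.1, 288.0 and 302.2 at 12 hours in L13406_s_at, 184.9 and 120.8 in controls 1 and 2, and 130.7 to 223.2 in controls 3 to 6. It was above every control, with a log2 fold of 1.02 ± 0.27 (SE) against controls 1 and 2 (limma adjusted p = 0.583), and it passed against controls 3 to 6 with 0.76 (limma adjusted p = 0.02). The other 4 tested Camk2d probe sets had log2 folds of -0.43 to 0.32 against all 6 controls. Clcn5 had 51.3, 56.5 and 49.9 at 12 hours in Z56277_i_at against 52.4 to 113.3 in the controls. Syt6, a synaptotagmin, had 12.4 to 18.3 at 12 hours, 76.1 and 29.8 in controls 1 and 2, and 16.1 to 44.5 in controls 3 to 6. Tf, transferrin, had 41.8, 32.4 and 75.5 at 12 hours in U31866_g_at, 11.6 and 13.2 in controls 1 and 2, and 12.2 to 78.8 in controls 3 to 6, while D38380_at fell against controls 3 to 6 by 1.34 on the log2 scale (limma adjusted p = 0.013). The probe sets of Camk2d thus disagree in direction. For Tf, U31866_g_at was higher than in controls 1 and 2 but lay within the range of controls 3 to 6. These values therefore show no disagreement of the 2 Tf probe sets against the same controls.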

How the data were processed

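For every probe set and array the authors deposited 1 intensity on a linear scale, called signal. Which software made it is not stated in the sources used here. The values show that each array had been scaled to 1 trimmed mean (without the lowest and highest 2%), so it was not scaled again. The 10th percentile of all values (11.3) served as a floor before taking log2. Probe sets had to exceed the 30th percentile (44.9) on 3 or more of the 18 arrays. Gene symbols came from the platform annotation: of 1263 probe sets, 1137 had 1 symbol, 8 several and 118 none, and 1132 matched the reference gene table, with 0 symbols changed. In lists and counts by gene, its brightest probe set on average was used.

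The fit, lmFit with eBayes in limma 3.58.1 (R 4.3.3), took all 18 arrays, the other times adding only to the estimate of spread. The comparison with all 6 controls had 5 groups and 13 residual degrees of freedom, and the others, with the controls divided, 12. Tests were two-sided with Benjamini-Hochberg adjustment over 1027 probe sets and a threshold of 0.05. A fold is the difference between 2 group means of log2 signal, and understates changes near the floor. Arrays with the same number did not deviate together (correlations 0.008, -0.002 and 0.033), so the numbers were not taken as pairs.

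Genes were named by rule: those past the threshold against all 6 controls, the 12 largest folds in each direction outside the range of the controls, the 8 largest in each direction past the threshold against either set of controls (or the 4 smallest p where none passed), up to 4 members past the threshold of each of 32 lists, and fixed astrocyte genes. Genes added to these were chosen after their values were seen. The members and lists were chosen with earlier results of these data known. The alternatives were 3 scalings, 2 filters, 2 floors, moderated variances with trend and robust options, the 9 arrays alone, array weights, a replicate block, and each array left out. Promoter sequences are RefSeq's, build GRCr8.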

Additional observations from a re-analysis of the deposited data

Results flagged for a closer look

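Among 121 named probe sets, 12 had a control array far from the other 5 by Dixon's test. Most of the 121 were named by their values on these same arrays, so no chance rate applies to this count. Control 1 was the far array in 7. It was highest for Ccl5, with 1496.3 against 11.4 to 24.2 in the others and 1250.5 to 1480.0 at 12 hours, for Nefh (rc_AA818677_at), with 166.5 against 6.2 to 18.1 and 134.0 to 138.5, for Hspe1 (rc_AI170613_at), with 6783.6 against 3491.3 to 4183.9 and 5906.4 to 6591.3, and for Il4r, with 601.7 against 398.7 to 460.5 and 635.6 to 757.2. It was lowest for Nalcn (AF078779_g_at), with 41.8 against 96.8 to 135.9 and 6.8 to 10.1 at 12 hours, for Igfbp2 (M91595exon_s_at), with 6721.8 against 16390 to 19649.1 and 5678.6 to 6891.7, and for Syn2, with 7.0 against 37.0 to 71.8 and 4.8 to 23.8. In all 7 it lay on the side of the exposed arrays.

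Control 2 was lowest for S100b (S53527mRNA_s_at), with 19.7 against 401.2 to 1209.0 in the others, and for Pla2g6, with 56.4 against 216.6 to 412.8. Control 3 was lowest for Slc1a2 (U15098_at), with 36.5 against 80.7 to 107.4. Control 5 was highest for Galr2, with 105.6 against 46.0 to 56.5, and control 6 for Kcnma1 (U55995_at), with 43.9 against 4.8 to 13.8 and 43.4 to 50.2 at 12 hours.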

How the results depend on the processing

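Of the limma counts against all 6 controls (17), quantile normalisation gave 8, cyclic loess 4, no filter 27, the 9 arrays alone 1, array weights 491 and the replicate block 3 (C3, Tf and Kcnma1). Leaving out an array gave 1 to 211. Against controls 1 and 2 (0), the floor at the 5th percentile, the 9 arrays alone and array weights each gave 1, Nalcn, the replicate block gave 1, Kcnma1, and leaving out an array 0 to 3. Against controls 3 to 6 (318), array weights gave 519, the replicate block 106 and leaving out an array 190 to 321. Between the sets of controls (126), the 9 arrays alone gave 214, array weights 193 and leaving out an array 9 to 161. The count outside the range of all 6 controls (154) was 161 to 317 when an array was left out, which can only keep or raise this count. The cause of the shifts in the limma counts was not tested. Arrays with the same number showed no sign of deviating together, though so few arrays from unlike sets of controls cannot exclude pairing. No block can take controls 4 to 6 with an array at 12 hours, since their numbers have none.

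Of the named log2 folds, those of 3 probe sets changed sign, all against all 6 controls. Apoe (X04979_at) went from 0.01 to -0.13 with quantile normalisation, -0.0861 with cyclic loess, -0.36 with array weights and -0.29 to 0.22 when an array was left out. S100b (S53527mRNA_s_at) went from -0.19 to 0.0049 with median centring, 1.11 with the replicate block and -1.08 to 0.11 when an array was left out. Slc1a3 (S59158_at) went from -1.25 to 0.0353 with the replicate block. The number of arrays limits the precision, and low signals near the floor bound several folds.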
